A study of Mus musculus with 12 samples.

Results

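The difference between the decitabine responses of 2 mouse tumour cell lines was measured gene by gene over all 12 RNA-seq libraries of the series, 12 of 12, joined on their Ensembl gene identifiers. The quantity was the change in B16F10 cells (DAC minus control) minus the change in 4T1 cells (DAC minus control). The focus was on genes that moved in opposite directions or in 1 line alone. Genes that moved the same way in both lines, or whose difference did not pass, are given beside them. The 4 groups had 3 libraries each: B16F10 cells given 0.1 µM decitabine (DAC), B16F10 controls, 4T1 cells given 1 µM DAC, and 4T1 controls. B16F10 is a melanoma line of C57BL/6 origin, and 4T1 is a mammary carcinoma line of BALB/c origin. Both were treated for 48 h in culture, without host tissue or immune cells. Dead cells were removed before RNA preparation, so the libraries describe survivors. The dose differed with the line, and so a difference between the responses cannot be told apart from a difference between the doses. The control label names no vehicle, and nothing states that replicates came from separate cultures, so each p-value measures the spread between these libraries, which may be technical.

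Decitabine is a cytidine analogue that cells phosphorylate and build into replicating DNA, where it traps DNA methyltransferases and causes passive loss of CpG methylation at the next divisions. It is known to switch on genes held silent by promoter methylation, germline genes among them, and to raise interferon-stimulated genes after transcripts of repeats form double-stranded RNA. Incorporated decitabine also damages DNA, and stress programmes such as those of p53 and Atf4 can move with it.

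The markers matched the labelled lines. Levels are given in CPM, estimated counts scaled to the library total after TMM normalisation, and are compared between libraries and not between genes. Summed over 28 melanocyte markers tested, the level was 19799 to 20934 CPM in B16F10 DAC, 21883 to 23031 in B16F10 control, 487 to 506 in 4T1 DAC and 686 to 724 in 4T1 control libraries. Summed over 33 epithelial and mammary markers, it was 27.5 to 31.7 CPM in B16F10 DAC, 19 to 22.7 in B16F10 control, 4515 to 4838 in 4T1 DAC and 5084 to 5376 in 4T1 control libraries. Of these 28, 2 were at 0 counts in 4T1 DAC and 8 in 4T1 control libraries, Tyrp1 (a pigment enzyme) in both groups. In 4T1 12 of the 28 rose and 5 fell (34.2% and 33.8% of all genes did), although their sum was lower with DAC. Blood markers summed to 138 to 176 CPM in B16F10 DAC against 94.1 to 98.2 in B16F10 control libraries, nearly all of it Cd68, and to 25.8 to 27.3 CPM in 4T1 DAC against 3.43 to 4.42 in 4T1 control libraries, and Ptprc, the pan-leukocyte marker, averaged 0.0985, 0, 1.21 and 0.0818 CPM in those 4 groups. The part of these markers in the results was not tested. Library totals ran from 48197936 to 76042600 estimated counts, so that 3 counts corresponded to 0.0395 to 0.0622 CPM. The biological coefficient of variation, the spread between replicates beyond counting error, was 10.5% in B16F10 and 6.92% in 4T1. In bulk RNA, fewer cells expressing a gene and less RNA per cell cannot be told apart.

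The responses differed for 8526 of 17127 genes by the test of the difference itself. In B16F10 cells 6747 of 17127 genes tested changed (39.4%), of which 3763 rose (22%) and 2984 fell (17.4%). In 4T1 cells 11641 changed (68%), of which 5852 rose (34.2%) and 5789 fell (33.8%). The difference passed an adjusted p of 0.05 for 8526 genes (49.8%): 4949 were positive (28.9%), meaning a response more upward in B16F10, and 3577 were negative (20.9%). At least a 2-fold difference was found for 3301 genes (19.3%), 1478 positive and 1823 negative, and at least 16-fold for 323 positive and 493 negative. Scaling by library size alone moved the median difference of all genes to 0.276, against 0.0508 on the log2 scale with TMM scaling, and the positive share of calls to 73.6%, against 58%.

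Opposite responses were the smaller class. Of the 5084 genes called in both lines, 3675 moved the same way and 1409 moved oppositely. The B16F10 change was upward and the 4T1 change downward for 914 genes (5.34% of those tested), by at least 2-fold in both lines for 83. The reverse held for 495 genes (2.89%), by at least 2-fold in both lines for 39. With library size alone the same opposite call was made for 813 of the 914 and for 290 of the 495, but for 83 of the 83 and 37 of the 39 with 2-fold changes. A response in 1 line alone, counted where the difference also passed, was upward in B16F10 for 594 genes (3.47%) and downward for 427 (2.49%). In 4T1 it was upward for 1968 (11.5%) and downward for 2296 (13.4%). A further 367 genes (2.14%) moved the same way in both lines but more in B16F10, and 1332 (7.78%) more in 4T1. Calls in 1 line without a passing difference were set aside: 642 of 1663 genes called in B16F10 alone and 2293 of 6557 called in 4T1 alone. At the edge of the opposite rule, Unc45a was just inside with a largest adjusted p of 0.0498 and log2 changes of 0.17 in B16F10 and -0.17 in 4T1. Tsr3 was just outside, its largest adjusted p rounding to the threshold, with -0.21 and 0.98.

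**Figure D1:**
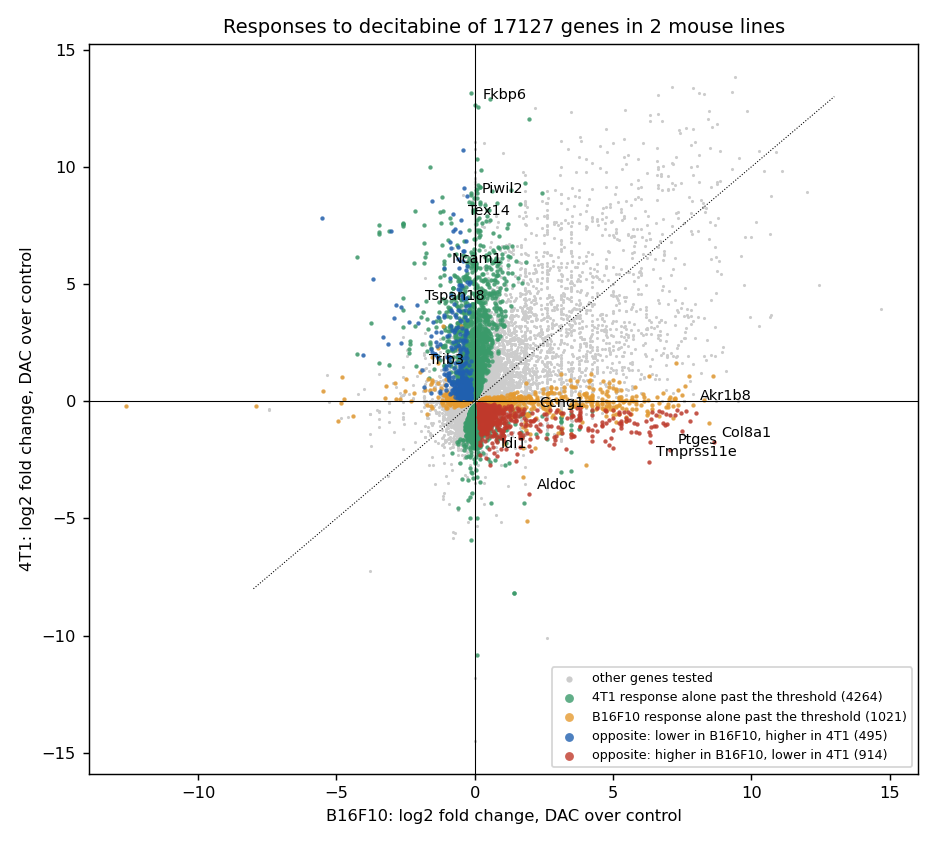
Each point is 1 of 17127 genes: the x axis is its log2 fold change (DAC over control) in B16F10 cells and the y axis that in 4T1 cells, with opposite and 1-line classes coloured and the dotted diagonal marking equal responses. The opposite genes fill the upper left (495) and lower right (914), and long tails run along both axes, as for Fkbp6 (0.01 in B16F10; its 4T1 position has no measured baseline, the control being at 0 counts and the rise at least 765-fold) and Akr1b8 (7.89 in B16F10, -0.17 in 4T1).

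A chosen part of the gene lists is drawn in the plot of calls by list, and lists left out were not smaller in share throughout. Sterol synthesis and Atf4 targets differed in most members. No list was tested as a set. Each count of positive and negative differences is to be read against 28.9% and 20.9% of all genes, and a list near those shares shows nothing of its own. Counts cover the members that passed the filter on low counts.

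**Figure D2:**
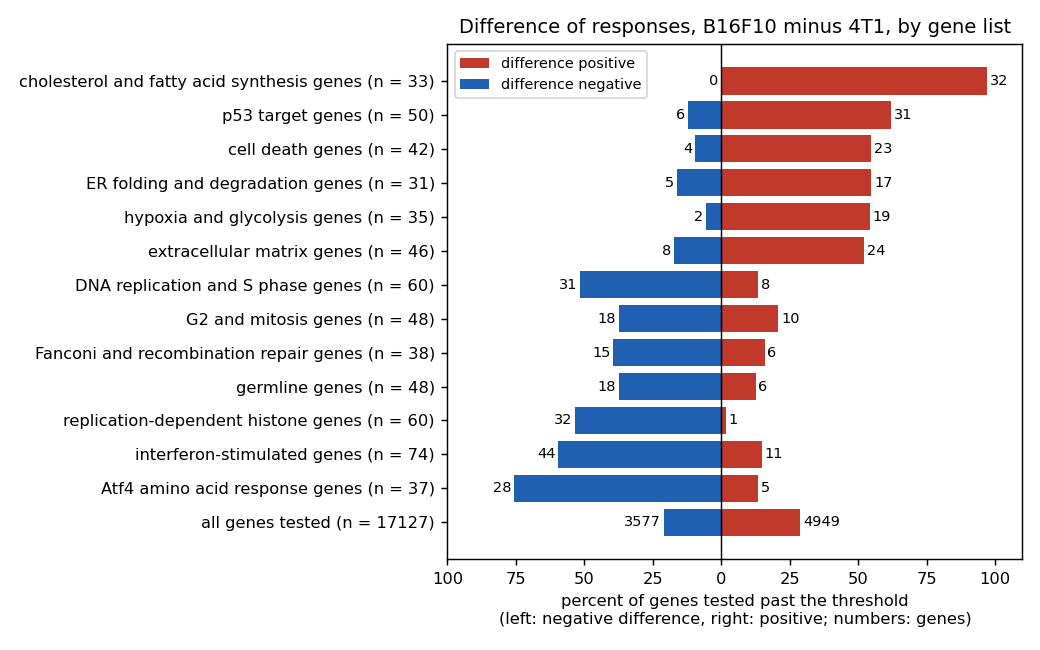
Bars give, for each gene list, the percent of its tested genes (x axis) whose difference of responses (B16F10 minus 4T1) passed an adjusted p of 0.05, negative to the left and positive to the right, with the numbers of genes at the bar ends. The cholesterol list lies wholly to the right (32 of 33) and the Atf4 list mostly to the left (28 of 37), against 4949 and 3577 of 17127 genes in all; with library size scaling the replication, mitosis and recombination lists lean less to the left or turn to the right.

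Genes of cholesterol and fatty acid synthesis are activated together by the Srebp transcription factors when cells lack sterols. All those tested fell in 4T1, while in B16F10 their rises and falls were near the shares of all genes. The difference was positive for 32 of 33 genes tested and negative for 0 (28.9% and 20.9% of all genes), with a median of 1.77 against 0.0508 for all genes on the log2 scale. In 4T1 all 33 tested fell (33.8% of all genes did; median -1.62), whereas in B16F10 7 rose and 7 fell (22% and 17.4% of all genes did) and the median was 0.0392. These counts were 33 and 0 with library size scaling and 32 and 0 without any single library.

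Among the early enzymes, Idi1, which makes the isoprenoid unit for sterols, had 113, 98.3 and 107 CPM in B16F10 DAC against 68, 62.8 and 67.6 in B16F10 control, and 58.1, 53.5 and 49.8 in 4T1 DAC against 217, 266 and 269 in 4T1 control libraries. DAC libraries lay above their controls in B16F10 and below them in 4T1, with no overlap in either line (log2 0.68 ± 0.08 SE in B16F10, -2.22 ± 0.08 in 4T1; difference 2.90, adjusted p = 6.1e-12). Hmgcs1, which condenses acetyl units at the head of the pathway, had 136, 125 and 120 CPM in B16F10 DAC against 103, 90.7 and 96.8 in control, and 55.2, 54.7 and 54.1 in 4T1 DAC against 224, 322 and 334 in control. Its B16F10 rise (log2 0.39, adjusted p = 0.026) was not called with no filter, without B16F10 DAC replicate 1 or without B16F10 control replicate 2, while the difference (2.82) was called in all 20 alternatives that tested it.

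In the squalene and sterol part of the pathway, Sqle, the squalene epoxidase, averaged 47.6 CPM in 4T1 DAC against 186 in control, and was not called in B16F10 (log2 -0.09, adjusted p = 0.31). Hsd17b7, a sterol ketoreductase, had the largest B16F10 rise of the list: 38.8, 34.6 and 33 CPM in B16F10 DAC against 18, 15.7 and 17.6 in control, and 17.6, 18.8 and 15.9 in 4T1 DAC against 34.5, 55.6 and 57.9 in control (difference 2.56, adjusted p = 5.7e-06). Both lines separated completely, in opposite directions. Cyp51 (lanosterol demethylase) and Ebp (sterol isomerase) were also opposite, with differences of 1.77 and 0.60.

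Of the fatty acid enzymes, Fasn, the fatty acid synthase, was opposite (log2 0.30 in B16F10 and -0.98 in 4T1). Elovl6, which elongates palmitate, fell in 4T1 alone: it had 88.8, 82.2 and 81.2 CPM in B16F10 DAC against 88.2, 86.2 and 83.4 in control, and 33.7, 35.4 and 34 in 4T1 DAC against 179, 191 and 200 in control (difference 2.44, adjusted p = 4.8e-14). Among regulators, Srebf2, the sterol-sensing factor, fell in both lines but more in 4T1 (-0.24 and -1.37), and Insig1, its feedback target, fell in 4T1 alone (-1.93). Srebf1 was the 1 member whose difference did not pass (-0.48 in B16F10, -0.55 in 4T1; adjusted p = 0.65). The first 4T1 control library was the lowest of its group for Idi1, Hmgcs1, Hsd17b7, Cyp51 and Insig1.

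**Figure D3:**
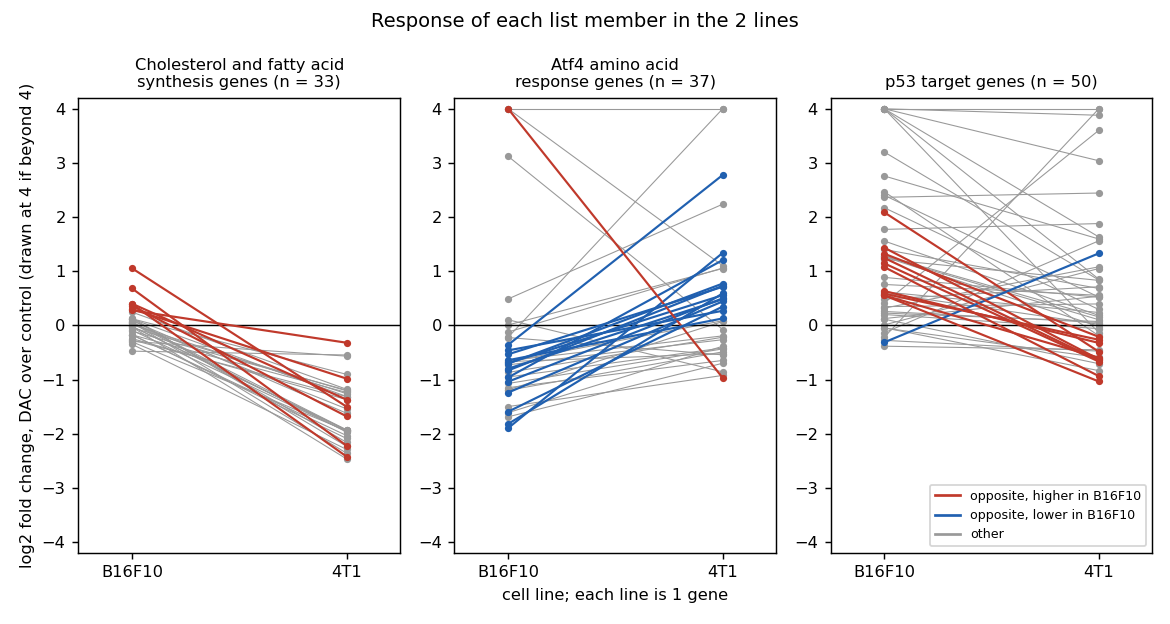
Each line joins the log2 fold change (y axis, DAC over control) of 1 gene in B16F10 to that in 4T1; red genes rose in B16F10 and fell in 4T1, blue genes the reverse. All 33 cholesterol and fatty acid genes end below 0 in 4T1, 14 Atf4 genes cross upward, and 10 p53 targets cross downward.

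Atf4 is the transcription factor of the integrated stress response; it drives amino acid synthesis, amino acid transport and tRNA charging genes through a composite C/EBP-ATF element. Its programme moved the other way. Of 37 genes tested the difference was negative for 28 and positive for 5 (20.9% and 28.9% of all genes), with a median of -0.989; the 5 were 3 without 4T1 control replicate 3 or without B16F10 control replicate 3. In B16F10 28 fell and 3 rose (17.4% and 22% of all genes did). In 4T1 20 rose and 14 fell (34.2% and 33.8% did). Of the 37, 14 were opposite (lower in B16F10, higher in 4T1), a class that held 2.89% of all genes. With library size scaling 28 and 5 differed as before, but 11 of the 14 stayed opposite: there the 4T1 rise of Gpt2 and Nars was not called and Gars was called lower in 4T1.

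The promoters of 3 of the opposite Atf4 genes are shown because each holds a match to the core of that element, TGATGNAA read on either strand, here in capitals. They run 5′ to 3′ over 250 bases before to 50 after the RefSeq start (GRCm38.p6).
Trib3, chr2:152344011-152344310 (minus strand): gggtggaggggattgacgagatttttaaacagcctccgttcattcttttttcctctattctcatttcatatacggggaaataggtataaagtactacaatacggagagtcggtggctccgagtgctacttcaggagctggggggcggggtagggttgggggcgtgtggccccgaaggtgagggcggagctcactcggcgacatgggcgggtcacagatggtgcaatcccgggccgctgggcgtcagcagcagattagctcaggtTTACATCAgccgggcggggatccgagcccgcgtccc
Chac1, chr2:119350992-119351291 (plus strand): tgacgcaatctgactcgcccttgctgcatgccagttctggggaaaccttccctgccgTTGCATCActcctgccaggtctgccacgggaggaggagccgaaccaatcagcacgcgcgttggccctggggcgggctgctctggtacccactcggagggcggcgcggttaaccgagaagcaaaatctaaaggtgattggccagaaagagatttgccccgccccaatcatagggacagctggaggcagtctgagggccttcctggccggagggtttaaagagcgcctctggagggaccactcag
Asns, chr6:7693160-7693459 (minus strand): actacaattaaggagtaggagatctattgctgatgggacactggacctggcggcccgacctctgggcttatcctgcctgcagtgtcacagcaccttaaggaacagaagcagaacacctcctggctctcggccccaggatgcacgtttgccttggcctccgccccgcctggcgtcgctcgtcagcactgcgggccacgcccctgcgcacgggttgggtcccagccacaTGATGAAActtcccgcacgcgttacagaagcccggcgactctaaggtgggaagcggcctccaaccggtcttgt

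Such a match lay in the 300-base promoters of 9 of 29 Atf4-list genes found in the RefSeq table (31%), against 2.36% of 11816 promoters of genes tested and 4.06% of 27025 in the table. The other members with a match were Pck2, Atf3, Nupr1, Slc7a11, Aars and Gars, and they did not move alike: Aars and Gars were opposite, Pck2 and Nupr1 fell in both lines, Slc7a11 fell in 4T1 alone and Atf3 rose in both. The same search was made for TCACNCCAC, taken as the core of the sterol response element. It lay in 1 of 23 promoters of the cholesterol and fatty acid list (4.35%), against 0.99% of those of genes tested. A match is a description of the letters and not of binding.

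Trib3, a pseudokinase that is a feedback target of Atf4, had 38.9, 34.7 and 43.3 CPM in B16F10 DAC against 124, 168 and 143 in control, and 38.8, 41.8 and 40.8 in 4T1 DAC against 14.7, 17.5 and 15.7 in control libraries. The DAC levels of the lines came to lie in the same range while the controls stood apart (difference -3.24 ± 0.15 SE, adjusted p = 1.6e-09). Chac1, which degrades glutathione, had 14.9, 15 and 17.2 CPM in B16F10 DAC against 47.3, 63.8 and 54.9 in control, and 16.4, 17 and 18 in 4T1 DAC against 11.2, 11.5 and 11.5 in control (difference -2.41, adjusted p = 1.1e-10). Asns, the asparagine synthetase, had 145, 156 and 145 CPM in B16F10 DAC against 314, 300 and 302 in control, and 222, 224 and 229 in 4T1 DAC against 152, 168 and 158 in control (difference -1.54, adjusted p = 7.5e-12). For these 3 genes no DAC library overlapped its control in either line.

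Atf4 mRNA itself had 355, 379 and 364 CPM in B16F10 DAC against 613, 657 and 642 in control, and 258, 264 and 263 in 4T1 DAC against 160, 200 and 202 in control (difference -1.28, adjusted p = 7.7e-09). Ddit3, the pro-death factor CHOP, rose in 4T1 to 69.4, 73.1 and 68.5 CPM, against 8.05, 12.4 and 10.3 in control. Its B16F10 values were 62.8, 70.2 and 67.7 in DAC against 77, 102 and 79 in control, a fall at adjusted p = 0.047 that stayed called in 9 of 21 alternatives, while its difference (-3.14) was called in all 20 alternatives that tested it. Mthfd2 and Aldh1l2 of mitochondrial folate metabolism, the aminotransferase Gpt2, the transporter chain Slc3a2, the factor Atf5 and the tRNA synthetase genes Nars, Sars, Aars and Gars completed the 14, with differences between -2.17 (Aldh1l2) and -0.73 (Nars).

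Not every member crossed. The serine synthesis and folate genes Phgdh (55.8% of its 31-base words occur in other genes, so its counts are uncertain), Psph and Shmt2 and the transporter gene Slc1a5 fell in both lines, more in B16F10 (Shmt2: -1.15 and -0.65). The transporter genes Slc7a5 and Slc7a1 fell in B16F10 alone; Slc7a5 had 178, 179 and 193 CPM in B16F10 DAC against 388, 429 and 438 in control, and 240, 244 and 221 in 4T1 DAC against 201, 238 and 231 in control. With library size scaling the 4T1 value of Slc7a5 was called lower as well. Slc7a11, the cystine transporter gene, ran against the list, averaging 53.3 CPM in B16F10 DAC against 49.6 in control, and 8.53 in 4T1 DAC against 15.4 in control (difference 0.96, adjusted p = 0.0014).

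**Figure D4:**
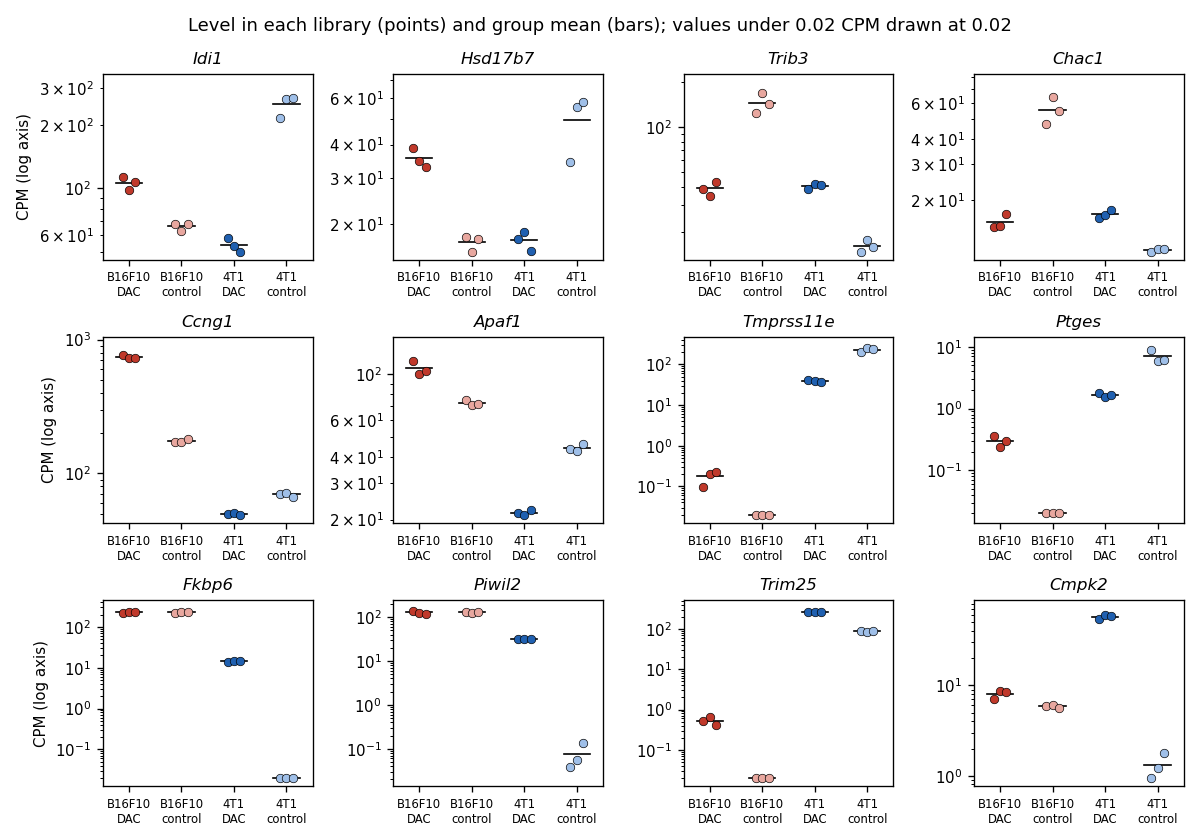
Points are the CPM of single libraries (y axis, logarithmic) for 12 genes, bars the group means, in the order B16F10 DAC, B16F10 control, 4T1 DAC and 4T1 control; values under 0.02 CPM are drawn at 0.02. Idi1 and Hsd17b7 are higher in DAC than in control in B16F10 and lower in 4T1, Trib3 and Chac1 do the reverse, and Fkbp6 and Piwil2 are level in B16F10 and near 0 in 4T1 controls.

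Ranked by the smaller of the changes in the lines, 10 genes led the opposite class that rose in B16F10 and fell in 4T1. Tmprss11e, an epithelial serine protease, had 0.098, 0.206 and 0.22 CPM in B16F10 DAC against 0 counts in 3 controls, at least 10.2-fold higher against a floor of 3 counts over the group, and 40.6, 39.5 and 37 in 4T1 DAC against 202, 249 and 246 in control. Its B16F10 level stayed far under that of 4T1. Ptges, a prostaglandin E synthase, had 0.359, 0.24 and 0.294 CPM in B16F10 DAC against 0 in all controls, at least 17.6-fold higher, and 1.81, 1.54 and 1.65 in 4T1 DAC against 8.95, 5.99 and 6.04 in control. Col8a1, a collagen chain, had 0.98, 0.788 and 0.918 CPM in B16F10 DAC against 0 in all controls, at least 52.8-fold higher, and 71.3, 70.6 and 65.5 in 4T1 DAC against 207, 237 and 249 in control. These 3 were at 0 in B16F10 controls and expressed in 4T1, and Srgap3 (at least 4.06-fold higher) and Pdgfrl (61 DAC against 2 control counts, ratio 31, 95% counting interval 8.21 to 261) stood at or near 0 there too.

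The others were expressed in both lines. Aldoc, an aldolase of glycolysis, had 2.83, 3.27 and 4.02 CPM in B16F10 DAC against 1.05, 0.678 and 0.831 in control, and 0.75, 0.908 and 0.962 in 4T1 DAC against 16.5, 11.9 and 13.1 in control. The lines exchanged order, B16F10 being above 4T1 after DAC and below it in controls (difference 5.94 ± 0.28 SE, adjusted p = 1.1e-11). Eya1, a transcriptional co-activator of organ development, had 2.44, 3.79 and 3.16 CPM in B16F10 DAC against 1, 0.527 and 0.737 in control, and 9.53, 9.27 and 8.53 in 4T1 DAC against 37.5, 42.2 and 40.5 in control. Arhgap6, a GTPase-activating protein gene on the X chromosome, had 2.12, 2.16 and 2.54 CPM in B16F10 DAC against 0.318, 0.339 and 0.267 in control, and 3.12, 3.54 and 3.12 in 4T1 DAC against 11.8, 11.8 and 11.6 in control. Samsn1 and Celsr1 had differences of 5.34 and 3.88. When each line was fitted on its own, Tmprss11e and Srgap3 fell under the filter on low counts in B16F10, and their rises were not tested there.

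The 10 leading genes of the other direction fell in B16F10 and rose in 4T1. Tspan18, a tetraspanin, had 3.15, 3.89 and 3.55 CPM in B16F10 DAC against 15.8, 14 and 14.8 in control, and 2.98, 2.95 and 3.27 in 4T1 DAC against 0.117, 0.18 and 0.229 in control (difference -6.18 ± 0.24 SE, adjusted p = 7.8e-13). Epm2a, the glycogen phosphatase laforin, had 2.17, 1.97 and 1.82 CPM in B16F10 DAC against 6.03, 5.2 and 4.31 in control, and 4.47, 4.04 and 4.98 in 4T1 DAC against 0.94, 0.957 and 0.706 in control (difference -3.75, adjusted p = 1.3e-09). The controls differed in the direction opposite to the DAC libraries for Epm2a, and B16F10 was the higher line in controls for both genes. Ncam1, a neural cell adhesion molecule, had 77.4, 86.7 and 79.7 CPM in B16F10 DAC against 188, 172 and 162 in control, and 18 counts in all 4T1 DAC libraries against 0 in 4T1 control, at least 5.97-fold higher. The 4T1 rises of Ncam1, St6galnac3 and Xylt1 rested on 18, 17 and 4 counts. When each line was fitted on its own, these genes fell under the filter on low counts in 4T1 and were not tested there. Xylt1 kept its opposite call in 15 of 21 alternatives. Trib3 belonged to this group, as did Dock10 (-3.45), Angptl6 (-3.68), Slc9a9 (-2.30) and Map2k6, a kinase of the p38 cascade (-2.88).

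p53 activates arrest, repair and death genes after DNA damage, and its targets leaned towards B16F10. Of 50 tested, the difference was positive for 31 and negative for 6 (28.9% and 20.9% of all genes; median 0.807). In B16F10 39 rose and 3 fell (22% and 17.4% of all genes did). In 4T1 25 rose and 15 fell (34.2% and 33.8% did), the falls being near that share. For 10 genes the change was upward in B16F10 and downward in 4T1, against 5.34% of all genes. Ccng1, cyclin G1, had 762, 732 and 731 CPM in B16F10 DAC against 172, 172 and 180 in control, and 49.3, 51 and 48.8 in 4T1 DAC against 70.3, 71.9 and 66.7 in control (difference 2.57 ± 0.07 SE, adjusted p = 3.1e-15). Zmat3, an RNA-binding target of p53, had 190, 176 and 183 CPM in B16F10 DAC against 84, 83.2 and 80.7 in control, and 25.1, 25.8 and 26.6 in 4T1 DAC against 39.7, 41.8 and 41.6 in control. Both genes separated fully in both lines.

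Arrest genes did not all follow. Cdkn1a, the p21 inhibitor, rose in both lines by amounts whose difference did not pass: 530, 538 and 553 CPM in B16F10 DAC against 153, 161 and 161 in control, and 44.6, 45.8 and 45.8 in 4T1 DAC against 16.2, 9.73 and 11.1 in control (difference -0.11 ± 0.19 SE, adjusted p = 0.69). Mdm2, the p53 ubiquitin ligase, and Btg2 and Plk2 rose in both, more in B16F10. Trp53 mRNA rose in both, more in 4T1 (0.29 and 1.09; difference -0.80, adjusted p = 2.7e-07). Gadd45a, a damage-response gene, was opposite to the rest, with 33.3, 34.7 and 35 CPM in B16F10 DAC against 40.1, 46.3 and 41.6 in control, and 22.9, 21.6 and 21.2 in 4T1 DAC against 8.93, 8.72 and 8.45 in control. Gdf15, a stress cytokine that also stands in the Atf4 list, had 241, 266 and 299 CPM in B16F10 DAC against 276, 346 and 318 in control, and 2.95, 2.67 and 3.6 in 4T1 DAC against 1 count in 3 control libraries (498 against 1, ratio 495, 95% counting interval 88.5 to 19600).

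Death genes showed the same lean. Of 42 tested, 23 differences were positive and 4 negative (28.9% and 20.9% of all genes), and 9 genes rose in B16F10 and fell in 4T1 (5.34% of all genes). Apaf1, the scaffold of the apoptosome, had 116, 101 and 104 CPM in B16F10 DAC against 75.2, 71.2 and 71.7 in control, and 21.4, 21 and 22.2 in 4T1 DAC against 43.7, 42.8 and 45.9 in control. Members of opposite function moved together: the survival genes Bcl2l1 (0.64 in B16F10, -0.73 in 4T1) and Mcl1 (0.20 and -0.88) crossed, as did Casp6 (0.27 and -1.14) and the killer Bcl2l11 (0.22 and -1.08), whose B16F10 rise was called in 14 of 21 alternatives. Fas, the death receptor gene, was near 0 in B16F10 controls (1 count) and had 1.76, 1.44 and 2 CPM in B16F10 DAC, against 6.22, 6.08 and 5.6 in 4T1 DAC and 3.29, 3.77 and 2.82 in 4T1 control.

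Some rises in 1 line alone were of genes that the other line already expressed. Of 302 genes that rose at least 2-fold in B16F10 alone, 72 had at least 10 CPM in 4T1 controls, 60 of them with under 1 CPM in B16F10 controls, and 19 were under 0.1 CPM in both 4T1 groups. Of 1127 that rose at least 2-fold in 4T1 alone, 200 had at least 10 CPM in B16F10 controls, 95 of them with under 1 CPM in 4T1 controls, and 153 were under 0.1 CPM in both B16F10 groups. Over all genes tested the median control level was 12 CPM in B16F10 and 11.1 CPM in 4T1. A control level of at least 10 CPM was thus more common among all genes than in these classes. The class excludes a gene that rose in both lines, and so these counts describe the class and carry no test. It also held 0% of genes at 0 counts in the other line's controls. Over all genes tested 8.87% were at 0 counts in B16F10 controls and 3.95% in 4T1 controls. The edgeR test of the difference called 0 of 222 genes with 0 counts in both control groups. Genes at 0 counts in the other line's controls are thus missing from the 19 and the 153.

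**Figure D5:**
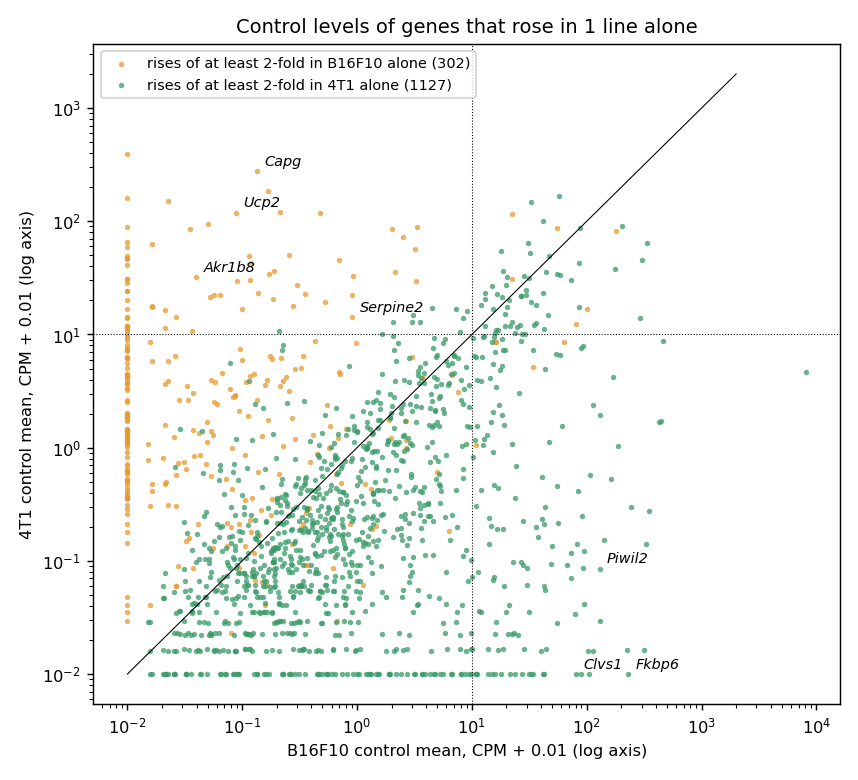
Each point is a gene that rose at least 2-fold in B16F10 alone (302, orange) or in 4T1 alone (1127, green), placed by its mean level in B16F10 controls (x axis) and 4T1 controls (y axis), both CPM + 0.01 on log axes; dotted lines mark 10 CPM. Orange points gather at the left edge, at low B16F10 control levels, and green points lie mostly below the diagonal, with Fkbp6, Clvs1 and Piwil2 at the far lower right.

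The promoters of 2 germline genes that rose in 4T1 alone are shown with every CpG in capitals, because the first was already on in B16F10 and the second stayed near 0 there (RefSeq, GRCm38.p6, 250 bases before to 50 after the start; 21 and 15 CpG).
Fkbp6, chr5:135349995-135350294 (minus strand): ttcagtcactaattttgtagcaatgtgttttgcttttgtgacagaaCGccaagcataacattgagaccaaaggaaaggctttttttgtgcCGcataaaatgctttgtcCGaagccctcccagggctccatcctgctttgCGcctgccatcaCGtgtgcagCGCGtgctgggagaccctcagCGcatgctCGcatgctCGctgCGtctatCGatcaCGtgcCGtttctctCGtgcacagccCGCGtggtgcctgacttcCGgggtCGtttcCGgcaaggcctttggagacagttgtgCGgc
D1Pas1, chr1:186967166-186967465 (plus strand): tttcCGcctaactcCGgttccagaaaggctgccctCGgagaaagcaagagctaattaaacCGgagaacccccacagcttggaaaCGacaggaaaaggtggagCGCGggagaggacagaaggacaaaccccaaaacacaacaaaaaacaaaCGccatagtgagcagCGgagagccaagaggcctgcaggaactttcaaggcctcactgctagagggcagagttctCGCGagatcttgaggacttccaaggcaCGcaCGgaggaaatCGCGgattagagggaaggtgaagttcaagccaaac

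Fkbp6, a chaperone needed for piRNA loading and meiosis, had 222, 238 and 234 CPM in B16F10 DAC against 222, 233 and 234 in control, and 14.2, 14.6 and 14.5 in 4T1 DAC against 0 counts in every 4T1 control library, at least 765-fold higher (2308 counts against a floor of 3 over the group). D1Pas1, a testis RNA helicase gene, had 0.049, 0.0685 and 0.165 CPM in B16F10 DAC against 0.134, 0 and 0.0471 in control, and 17.1, 17.6 and 16.8 in 4T1 DAC against 0 in 4T1 control, at least 907-fold higher. In 4T1 both genes were at 0 without DAC, while B16F10 controls held the first at high and the second at trace level. Piwil2, a PIWI protein of the germline piRNA pathway, had 136, 126 and 120 CPM in B16F10 DAC against 132, 126 and 130 in control, and 32, 31.5 and 30.8 in 4T1 DAC against 0.0392, 0.0542 and 0.134 in control (difference -8.68 ± 0.16 SE, adjusted p = 5.8e-17). Tex14, needed for germ cell bridges, was opposite, with 26.2, 24.8 and 25.6 CPM in B16F10 DAC against 37.5, 37.1 and 34.4 in control, and 7.01, 7.1 and 7.2 in 4T1 DAC against 0.0588, 0.0181 and 0.0191 in control.

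A list of 56 germline genes that DNA methylation keeps off in somatic cells had 48 members past the filter on low counts. Silent genes pass that filter through the DAC libraries in which they are high, so that 48 rose in 4T1 and 40 in B16F10 (34.2% and 22% of all genes did) describes only the members that passed. Among them the difference was negative for 18 and positive for 6 by edgeR, but for 31 and 7 by limma-voom and 24 and 5 by DESeq2. For 10 of the 48 both control groups held 0 counts, and there the fitted difference has no baseline; over all genes this held for 222, of which 0 were called by the edgeR test of the difference while 97 rose in both lines. Of the list, 5 germline genes rose in 4T1 alone: Piwil2, Fkbp6, D1Pas1, Tdrd1 and Brdt. Of 53 genes of X-linked germline families such as Rhox and Xlr, 32 passed the filter, by the same route, of which 31 rose in 4T1 and 26 in B16F10. Negative and positive differences numbered 6 and 1 by edgeR, 12 and 0 by DESeq2 and 15 and 2 by limma-voom, and 13 genes had 0 counts in both control groups. Rhox5, a homeobox gene that marks DNA demethylation, had 53.8, 69 and 57.5 CPM in B16F10 DAC against 21, 16.9 and 19.4 in control, and 27.4, 26.5 and 28.1 in 4T1 DAC against 1.31, 1.03 and 0.973 in control.

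Other genes that were level in B16F10 and rose in 4T1 to less than the B16F10 level were Clvs1, Scml2, Zfp105, Gypc, Colec11, Arrdc4 and Arhgap30. Scml2, a Polycomb-related X-linked gene, was not called in B16F10 (log2 0.09, adjusted p = 0.46) and had 3.02, 2.61 and 3.04 CPM in 4T1 DAC against 0 in control, at least 153-fold higher. Arhgap30, a GTPase-activating protein gene, had 144, 140 and 144 CPM in B16F10 DAC against 141, 141 and 140 in control, and 7.88, 7.69 and 7.6 in 4T1 DAC against 0.117, 0.18 and 0.134 in control. Of Clvs1, 36.3% of exon bases overlap Asph and another gene, and its counts are uncertain. Among genes under 0.1 CPM in both B16F10 groups, Tnf, the inflammatory cytokine gene, had 9.82, 8.47 and 9.85 CPM in 4T1 DAC against 0.529, 0.451 and 0.553 in control. Il1a, another inflammatory cytokine gene, had 14.2, 14.7 and 14.9 CPM in 4T1 DAC against 4.9, 5.56 and 6.43 in control. Bcl2l15 and Acss3 shared this pattern, but the difference of Acss3 (overlapping Ppfia2 over 33.9% of its exon bases) was lost without B16F10 control replicate 2 (adjusted p = 0.98).

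The mirror class, genes on in 4T1 and gained by B16F10, was led by Akr1b8, an aldo-keto reductase. It had 6.55, 8.74 and 6.39 CPM in B16F10 DAC against 0.0168, 0.0565 and 0.0157 in control, and 28.9, 29.4 and 26.8 in 4T1 DAC against 30.4, 33.2 and 32.2 in control (difference 8.06 ± 0.29 SE, adjusted p = 3.9e-13). Capg, an actin-capping protein, had 2.44, 1.94 and 2.57 CPM in B16F10 DAC against 0.184, 0.113 and 0.0784 in control, and 250, 266 and 246 in 4T1 DAC against 286, 269 and 279 in control. Ucp2, a mitochondrial carrier, had 3.2, 4.58 and 4.83 CPM in B16F10 DAC against 0.201, 0.0188 and 0.0157 in control, and 138, 139 and 131 in 4T1 DAC against 124, 114 and 121 in control. In all 3 the B16F10 DAC level remained well under the 4T1 level. Spata13, Fbln2, Slc39a8, Cyba and Zfp72 had 0 counts in all B16F10 controls and were at least 40.6-, 21.3-, 20-, 19.3- and 18.9-fold higher with DAC. With library size scaling Akr1b8, Capg, Fbln2 and Fblim1 were also called lower in 4T1, and Ucp2 and Serpine2 were called higher in 4T1 in 6 and 5 of 21 alternatives. Kcnj13, a potassium channel gene that overlaps Gigyf2 over 49.1% of its exon bases, was the leading gene gained in B16F10 and near 0 in 4T1 (difference 4.06, adjusted p = 0.000299).

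Falls in 1 line alone were more numerous in 4T1. In B16F10 they were at least 2-fold for 55 of 427 genes and in 4T1 for 408 of 2296. These classes held 2.49% and 13.4% of all genes tested. Aldh18a1, of proline synthesis, had 87.8, 95 and 96.4 CPM in B16F10 DAC against 205, 218 and 212 in control, and 95.8, 95 and 96 in 4T1 DAC against 101, 97.9 and 99.9 in control. Eef2k, the elongation factor 2 kinase, and Slc1a4, a neutral amino acid transporter, fell likewise (B16F10 log2 -1.16 and -1.04), and with library size scaling all 3 were called lower in 4T1 too, by less. Msh5, a meiotic mismatch repair gene, had 0.098, 0.0857 and 0.0367 CPM in B16F10 DAC against 0.301, 0.151 and 0.22 in control, and its difference was lost without B16F10 DAC replicate 3 (adjusted p = 0.073) and without B16F10 control replicate 1 (0.074).

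In 4T1 alone, Pcdhb21, Pcdhb19, Pcdhb18 and Pcdhb17 were among the leading falls; they are clustered protocadherin beta genes, adhesion molecules encoded side by side on chromosome 18. Pcdhb21 had 8.37, 8.41 and 7.83 CPM in B16F10 DAC against 10.3, 10.1 and 8.75 in control, and 0.242, 0.13 and 0.217 in 4T1 DAC against 3.31, 3.58 and 4.14 in control (difference 3.98, adjusted p = 3.5e-10). Looked at after these values were seen, 17 of 21 Pcdhb genes tested fell in 4T1 (33.8% of all genes did) and 4 in B16F10 (17.4%), and 18 had a positive difference (28.9%). Trib2, a paralogue of Trib3, had 10.6, 9.46 and 9.44 CPM in B16F10 DAC against 10.3, 10.7 and 9.99 in control, and 1.28, 1.3 and 0.869 in 4T1 DAC against 13.6, 9.55 and 9.95 in control. Trib2 and Trib3 thus moved in opposite directions in 4T1. Tet1, which oxidises 5-methylcytosine, had 45.6, 40 and 39.6 CPM in B16F10 DAC against 51.2, 43.9 and 44.7 in control, and 0.484, 0.667 and 0.481 in 4T1 DAC against 3.84, 3.92 and 3.93 in control. Zbed6 had 0 counts in 4T1 DAC libraries against 650 in 4T1 control, but it lies wholly within Zc3h11a, and estimated counts of such a pair are uncertain.

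Interferon-stimulated genes, whose products block viruses, rose in both lines, and the rise was larger in 4T1 for most. Of 74 tested, 73 rose in 4T1 and 64 in B16F10 (34.2% and 22% of all genes did). By the edgeR test at an adjusted p of 0.05, 0 fell in either line. The difference was negative for 44 and positive for 11 (20.9% and 28.9% of all genes; median -1.21). Cmpk2, a nucleotide kinase induced by interferon, had 6.99, 8.76 and 8.45 CPM in B16F10 DAC against 5.88, 6.03 and 5.69 in control, and 54, 60 and 58.9 in 4T1 DAC against 0.94, 1.23 and 1.77 in control (difference -4.99, adjusted p = 1.7e-12). B16F10 had the higher controls and 4T1 the higher DAC libraries. Herc6, a ubiquitin ligase, rose in 4T1 alone, with 24.1, 23.6 and 21.7 CPM in B16F10 DAC against 23.7, 25.1 and 25 in control, and 46.3, 45.9 and 45.8 in 4T1 DAC against 12.1, 11.5 and 11.1 in control.

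A minority ran the other way, with a larger fold rise in B16F10: Trim25, Ifih1, Parp9, Parp12, Parp14, Dtx3l, Gbp7, Tapbp, Nlrc5 and Ifi204, besides Psmb10, which rose in B16F10 alone. The promoter of Trim25, the ubiquitin ligase that activates the RNA sensor RIG-I, is shown with its 18 CpG in capitals because the gene was at 0 in B16F10 controls (RefSeq, GRCm38.p6).
Trim25, chr11:88999153-88999452 (plus strand): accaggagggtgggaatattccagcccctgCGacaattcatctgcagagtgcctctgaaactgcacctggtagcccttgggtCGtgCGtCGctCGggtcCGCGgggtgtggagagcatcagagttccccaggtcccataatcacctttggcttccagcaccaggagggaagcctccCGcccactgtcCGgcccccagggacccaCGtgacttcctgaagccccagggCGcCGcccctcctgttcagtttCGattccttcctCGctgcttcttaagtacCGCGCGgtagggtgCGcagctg

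Trim25 had 0.523, 0.651 and 0.404 CPM in B16F10 DAC against 0 counts in all B16F10 controls, at least 31.1-fold higher, and 270, 260 and 273 in 4T1 DAC against 89.2, 85.9 and 89.9 in control. Parp9 had 1.14, 0.874 and 0.863 CPM in B16F10 DAC against 1 count in 3 controls, and 81.9, 82.8 and 77.9 in 4T1 DAC against 27.2, 28.4 and 28 in control. Ifih1, the RNA sensor MDA5, had 1.75, 1.65 and 1.75 CPM in B16F10 DAC against 3 counts over its controls, and 168, 166 and 156 in 4T1 DAC against 14.9, 19.5 and 21.7 in control. For these 3 the larger fold stood on a B16F10 baseline at or near 0, and the DAC level remained lower in B16F10 than in 4T1. A match to the core of the interferon-stimulated response element (GAAA, any 2 bases, GAAA, either strand) lay in 26 of 54 promoters of the list (48.1%) and in 3.12% of those of genes tested; 0 matches lay in the Trim25 window.

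Of 24 antigen presentation genes, 8 differences were positive and 6 negative with TMM scaling, near the 28.9% and 20.9% of all genes, but 10 and 3 with library size. Of 25 nucleic acid sensing genes, 9 were positive and 11 negative with TMM scaling but 10 and 9 with library size. Erap1, which trims peptides for MHC class I, was opposite (0.55 in B16F10, -0.45 in 4T1). Of 23 checkpoint and NK ligand genes, 9 were positive and 6 negative. Cd274, encoding PD-L1, averaged 18.4 CPM in B16F10 DAC against 19 in control, and 19.9 in 4T1 DAC against 1.58 in control (difference -3.69, adjusted p = 4e-14). Cd276, another B7 family ligand gene, was opposite, averaging 0.193 CPM in B16F10 DAC against 0 counts in control, and 66.4 in 4T1 DAC against 91.2 in control. Chemokine and cytokine genes split 9 positive to 9 negative over 35 (7 to 14 by limma-voom), and NF-kB genes 8 positive to 9 negative over 27 with TMM scaling but 11 to 5 with library size.

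Replication-dependent histone genes past the filter on low counts were mostly called higher in 4T1, and few in B16F10. Of 60 tested, 53 rose in 4T1 against 7 in B16F10 (34.2% and 22% of all genes did), where 4 fell (17.4%). The difference was negative for 32 and positive for 1 (20.9% and 28.9% of all genes). In B16F10 the median log2 change was 0. Members near 0 counts in B16F10 can pass the filter through the 4T1 DAC libraries, and so these counts describe only the members that passed. The list has 65 genes, and with a filter at 2 CPM 18 were tested by edgeR, of which 13 were negative and 0 positive. Members share sequence with other copies, so single members are uncertain. Hist1h2bc had 31, 35.6 and 39.4 CPM in B16F10 DAC against 8.17, 7.4 and 9.04 in control, and 67.5, 69.8 and 76.3 in 4T1 DAC against 2.41, 2.46 and 2.19 in control (difference -2.81, adjusted p = 3.2e-11). Hist1h2bj rose in 4T1 alone, averaging 0.276 CPM in B16F10 DAC against 0.28 in control, and 14.1 in 4T1 DAC against 0.446 in control.

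Hypoxia and glycolysis genes fell in both lines, more in 4T1. Of 35 tested, 26 fell in B16F10 and 27 in 4T1 (17.4% and 33.8% of all genes did). The difference was positive for 19 and negative for 2 (28.9% and 20.9% of all genes), or 21 and 5 without 4T1 control replicate 1. Bnip3, a mitophagy receptor gene induced by HIF, had 29.4, 25.8 and 26.6 CPM in B16F10 DAC against 79.2, 66.1 and 75.1 in control, and 7.64, 6.36 and 6.05 in 4T1 DAC against 108, 67.2 and 57.9 in control. Vegfa, the angiogenic growth factor gene, and Slc16a3, the lactate exporter gene, left this pattern. Vegfa had 28.4, 30.1 and 35.2 CPM in B16F10 DAC against 51.2, 54 and 55.5 in control, and 37.9, 39.2 and 42.4 in 4T1 DAC against 29.9, 18.9 and 17.8 in control (difference -1.62, adjusted p = 0.000205). Slc16a3 had 25.5, 22.3 and 26.9 CPM in B16F10 DAC against 48.8, 46.1 and 48.1 in control, and 2.15, 1.8 and 2.02 in 4T1 DAC against 0.235, 0.325 and 0.267 in control. Among endoplasmic reticulum folding genes 17 differences were positive and 5 negative over 31 with TMM scaling (28.9% and 20.9% of all genes), but 24 and 3 with library size; Hspa5, the chaperone BiP, rose by 0.98 in B16F10 and 0.26 in 4T1.

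Matrix and mesenchymal genes split by member. Of 46 tested, 24 differences were positive and 8 negative (28.9% and 20.9% of all genes), with a median of 0.708. For 8 genes the change was upward in B16F10 and downward in 4T1 (5.34% of all genes). Among structural genes, Col4a1, a basement membrane collagen, had 161, 170 and 170 CPM in B16F10 DAC against 124, 130 and 119 in control, and 227, 220 and 223 in 4T1 DAC against 514, 557 and 632 in control. Col18a1 and Lamb1, also of basement membranes, and Thbs1 and Spp1, secreted adhesion proteins, were opposite too (differences 1.90, 1.52, 1.74 and 2.48). S100a4, a calcium-binding protein of motile cells whose counts are uncertain because 51.7% of its exon bases overlap another gene, had 0.817, 1.2 and 1.14 CPM in B16F10 DAC against 0.486, 0.32 and 0.455 in control, and 156, 160 and 156 in 4T1 DAC against 408, 396 and 390 in control. Vim, the intermediate filament gene vimentin, fell in 4T1 alone (1032, 1043 and 900 CPM in DAC against 2763, 2666 and 2659 in control). The fibrillar collagen Col1a2 went the other way, averaging 41.2 CPM in B16F10 DAC against 40.4 in control, and 5.54 in 4T1 DAC against 0.225 in control. Of 33 epithelial markers tested, 14 differences were positive and 3 negative (28.9% and 20.9% of all genes). In B16F10 control 11 of the 33 were at 0 counts, and there the fitted difference has no baseline. Krt7 had 0.458, 0.72 and 0.551 CPM in B16F10 DAC against 0 in control, and 475, 491 and 458 in 4T1 DAC against 637, 670 and 699 in control.

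The direction of the cell cycle lists depended on the scaling. DNA replication genes fell in B16F10 for 57 of 60 and in 4T1 for 35 (17.4% and 33.8% of all genes did). Their difference was negative for 31 and positive for 8 with TMM scaling but 21 and 17 with library size alone. G2 and mitosis genes had 18 negative and 10 positive over 48, but 7 and 18 with library size, and recombination repair genes 15 and 6 over 38, but 8 and 19. Rfc4, a clamp loader subunit, fell in B16F10 and rose in 4T1 in all 21 alternatives, averaging 25.8 CPM in B16F10 DAC against 45.7 in control, and 39.5 in 4T1 DAC against 28.2 in control. Immediate early and heat shock genes (35 tested) had 11 negative and 8 positive differences, and 6 and 14 with library size.

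Of the drug's direct target and its partners, Dnmt1, the maintenance methyltransferase that decitabine traps as protein, had 175, 190 and 177 CPM in B16F10 DAC against 292, 292 and 275 in control, and 342, 341 and 323 in 4T1 DAC against 390, 432 and 446 in control (difference -0.33 ± 0.08 SE, adjusted p = 0.0016, lost with library size scaling at 0.23). Uhrf1, its recruiting partner, fell by 0.52 on the log2 scale in each line (difference 0.00 ± 0.08, adjusted p = 1). Dnmt3a, a de novo methyltransferase, rose in B16F10 alone (0.62 and 0.10; difference 0.51, adjusted p = 0.018, lost with no filter at 0.052). Dnmt3b did not pass (difference 0.37 ± 0.17, adjusted p = 0.078). Over 21 genes of the methylation machinery 9 differences were positive and 5 negative with TMM scaling (28.9% and 20.9% of all genes), but 12 and 2 with library size. Over 25 genes of decitabine uptake, activation and breakdown 9 were positive and 6 negative with TMM scaling, but 14 and 3 with library size; Dck, the activating kinase, averaged 55.5 CPM in B16F10 DAC against 72.5 in control, and 58.5 in 4T1 DAC against 71.3 in control. Its difference was -0.10 (adjusted p = 0.475). Cda, the inactivating deaminase, rose more in 4T1, averaging 3.72 CPM in B16F10 DAC against 2.22 in control, and 6.8 in 4T1 DAC against 2.57 in control.

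Promoter CpG content was lower among the larger rises. The median number of CpG in 300-base promoters was 20 over all genes tested, 22 in both opposite classes, 10 among genes that rose at least 2-fold in B16F10 alone, 12 among those that did so in 4T1 alone, and 8 among 1039 genes that rose at least 2-fold in both. Among the rises in 4T1 alone it was 18 where B16F10 controls held at least 10 CPM and 7 where B16F10 stayed under 0.1 CPM. In B16F10 alone it was 18 where 4T1 controls held at least 10 CPM and 5 over 13 promoters where 4T1 stayed under 0.1 CPM. Genes on the X chromosome were 3.54% of all genes tested, 3.19% of the 2-fold rises in 4T1 alone and 10.1% of those in both lines. Within the 4T1 rises they were 9% where B16F10 controls held at least 10 CPM and 0.654% where B16F10 stayed under 0.1 CPM. The subsets under 0.1 CPM held 0% of genes at 0 counts in the other line's controls, so they leave out genes wholly silent there. Promoters were found for 58.9% to 80% of these classes, and the values are descriptions without a test.

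Among the remaining lists, imprinted genes had 10 positive and 10 negative differences over 33 tested (28.9% and 20.9% of all genes), mitochondrially encoded genes 3 and 0 over 15 (6 and 0 with library size), and melanocyte markers 5 and 10 over 28. Fibroblast markers had 2 and 3 over 9 (2 and 5 by DESeq2), blood and immune markers 0 and 4 over 10 by the edgeR test, and endothelial markers 2 and 1 over 7.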

How the data were processed

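The data are 12 RNA-seq libraries, 3 in each of 4 groups, made from live cells, per the labels' protocols. The deposited values are estimated counts, which the authors made per gene with RSEM, per the submitters' processing notes, which also name edgeR and the mm10 build, without versions. Libraries were sequenced on 1 of several instruments, and which library ran on which is not given, so a run could not be tested as a batch.

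Both tables were joined on Ensembl identifiers (46517 genes; 46005 matched GENCODE M21) and rounded to whole counts. All 12 libraries entered 1 edgeR 4.0.16 quasi-likelihood fit (R 4.3.3; filterByExpr, TMM, 4 group means) over 17127 genes. Each line's DAC contrast and their difference were tested with Benjamini-Hochberg adjustment over all genes at 0.05. The fit was tested on simulated data with changes in B16F10 DAC alone, in genes expressed in the controls of both lines. Opposite responses and rises from controls at 0 counts were not simulated. A gene was opposite or 1-line from the calls in both lines plus the called difference. Values printed per library are TMM-scaled CPM. Where a group had 0 counts, folds are bounds against 3 counts over the group; 95% intervals of ratios cover counting error only. Alternatives were DESeq2 1.42.0, limma 3.58.1 voom, other scalings and filters, a replicate block and each library left out. Same-numbered libraries did not deviate together, so the numbers were not taken as pairs.

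Named genes were, among called differences with official symbols, at least 2 CPM in a group and no overlap in a responding line, the 10 largest opposite changes per direction, the 6 and 5 largest of each 1-line kind, 2 list members per direction with the smallest p, and Dnmt1, Dnmt3a, Dnmt3b, Uhrf1, Trp53 and Cdkn1a. Other list members were named after their values were seen. The comparison, the gene lists and the rules were chosen with earlier results of these data known. Results for some genes are not reported here.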

Additional observations from a re-analysis of the deposited data

Results flagged for a closer look

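The following results stood out because the test of the difference itself passed, in the same 12-library edgeR fit. The difference of responses (B16F10 minus 4T1) was positive for 4949 genes and negative for 3577.

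Among genes that rose in B16F10 and fell in 4T1, the log2 difference was 8.86 for Tmprss11e, 9.14 for Ptges, 5.34 for Samsn1, 4.17 for Eya1 and 6.96 for Srgap3. It was 5.94 for Aldoc, 3.88 for Celsr1, 4.72 for Arhgap6, 10.39 for Col8a1 and 6.40 for Pdgfrl. The differences of Tmprss11e, Ptges, Srgap3 and Col8a1 stand on B16F10 controls at 0 counts, where the fitted size depends on the prior count.

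Among genes that fell in B16F10 and rose in 4T1, the log2 difference was -6.18 for Tspan18, -3.45 for Dock10, -3.75 for Epm2a, -3.24 for Trib3 and -4.93 for Xylt1. It was -3.68 for Angptl6, -4.79 for St6galnac3, -2.30 for Slc9a9, -6.78 for Ncam1 and -2.88 for Map2k6. Xylt1 and Ncam1 had 0 counts in 4T1 controls.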

How the results depend on the processing

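Over 157 named genes and the 20 alternatives that test the difference, 3115 of 3140 differences kept their direction and side of the threshold, 21 (of 8 genes) were no longer called, 4 became called and 0 reversed. With library size only, 317 genes fell in B16F10 and rose in 4T1 (495 with TMM) and 252 fell in B16F10 alone (427 with TMM); the median log2 difference of all genes is then 0.276, against 0.0508. Without 1 library at a time, positive differences numbered 4627 to 4914 and negative ones 3271 to 3535. Opposite genes numbered 847 to 1016 (up in B16F10) and 381 to 477. Genes changed in B16F10 alone numbered 578 to 701 (up) and 303 to 382 (down), in 4T1 alone 1840 to 2121 and 2156 to 2485, and those moving the same way 267 to 390 (more in B16F10) and 1006 to 1330. The paired analysis with a replicate block gave 4801 positive and 3379 negative differences and 865 and 443 opposite genes, where deviations of same-numbered libraries correlated at -0.111 to 0.0321. Besides Msh5, Acss3 and Dnmt1, the differences of Wipf3, Ndufa4l2, Ovol1, Tktl1 and Dnmt3a were lost under some alternative; the cause was not tested. Dose and line cannot be told apart, and 3 counts (0.0395 to 0.0622 CPM) limit genes near 0.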
